A study of Homo sapiens with 8 samples.

Results

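Interferon-stimulated genes are the transcripts that cells raise after an interferon binds its receptor, and 40 of them, matched by gene symbol in a table of 63677 listed genes, were followed here across 4 treatments of Jurkat cells. Jurkat is a widely used line of human T-ALL, a leukaemia of immature T cells. In these cells TAL1, a DNA-binding factor that helps drive T-ALL, was joined to FKBP12, so that the degrader dTAG-13 can send it to the proteasome. The cells received dTAG-13, GSI (read here as gamma-secretase inhibitor, a class that keeps NOTCH receptors from signalling), both drugs together (the combination), or DMSO, the solvent, and RNA was taken at 24 hours. All 4 groups carried the fusion and each had 2 strand-specific libraries. The doses and the number of clones behind the line are not given in the labels, nor whether replicates came from separate cultures, so each p-value reflects only how far these libraries differ, which may be technical. The 40 genes were chosen by name with earlier results of these data known.

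In the usual pathway, type I interferons bind the receptor IFNAR1/IFNAR2, and Janus kinases then activate STAT2, which with a STAT partner and IRF9 forms a complex that binds the interferon-stimulated response element (ISRE) in DNA. IRF1 and IRF7 are transcription factors that act on overlapping elements, and IRF1 is itself raised by interferon-gamma through a gamma-activated site (GAS). The products block viral entry, translation, RNA copying or release. Many of these genes are also transcribed at a basal level without added interferon.

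Total counts ran from 17544319 to 22180009 per library, and the 40 genes together took 16860 to 21629 counts, or 910 to 982 CPM (counts scaled to library size with TMM factors). In bulk RNA, fewer cells that express a gene and less RNA per cell cannot be told apart. The groups' sums were 977 and 981 CPM with dTAG-13, 918 and 966 CPM with GSI, 910 and 951 CPM with the combination and 974 and 982 CPM with DMSO. DTX1, a NOTCH-induced gene, stood at 18.3 and 18.9 CPM with GSI and 19.7 and 16.97 CPM with the combination, against 99.5 and 105 CPM with dTAG-13 and 138 and 154 CPM with DMSO. The TAL1 transcript had 145 and 147 CPM with dTAG-13, 208 and 198 CPM with GSI, 197 and 199 CPM with the combination and 154 and 166 CPM with DMSO; TAL1 protein was not measured. Of 15 T-lineage markers, 14 were detected, and their sum was 3702 to 4257 CPM per library. The 7 markers of plasmacytoid dendritic cells, the main interferon producers of blood, summed to 7.85 to 10.7 CPM, almost all from TCF4, while CLEC4C and LILRA4 stayed under 0.1 CPM and IL3RA had 0 counts in all 8 libraries. The 12 myeloid markers summed to 15.4 to 21.6 CPM, nearly all from CST3, and the 12 epithelial and stromal markers to 320 to 376 CPM, nearly all from VIM. The 10 B-lineage markers summed to 341 to 480 CPM with GSI and 325 to 373 CPM with the combination, against 227 to 275 CPM with dTAG-13 and 244 to 277 CPM with DMSO, mostly from IGLL1 and CD79A. The part of these markers in the results below was not tested.

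Many of the members' promoters hold letters that match these elements, and a few are shown so that the genes can be told apart by sequence. RefSeq promoter windows (GRCh38.p14, 250 bases before to 50 after each start) were found for 32 of the 40 genes; OAS2, OASL, MX2, IFIT2, IFITM2, USP18, TRIM22 and IRF7 have no entry in the table used. Each window was searched on both strands for GAAA followed by any 2 bases and GAAA, a core of the ISRE, and for TTCNNNGAA, the GAS core, which reads the same on both strands. The 2 patterns can overlap by a few bases. The ISRE core was found in a window of 22 of the 32 genes (68.8%), and in 3.57% of all 35116 windows. The GAS core was found for 9 of the 32 genes (28.1%), and in 7.66% of all windows. Some genes have several windows and count if any of them matches, so the share of genes and the share of windows are unlike measures. Both were found for 5 genes and neither for 6. Closer spacings were not searched. Among the genes without an ISRE core match, GAAACGAAA, on either strand, occurs in windows of OAS1, DDX58, CMPK2 and XAF1. It also occurs in windows of some genes with a match, such as RSAD2, OAS3, PARP14 and MX1. A gene without a match may thus still hold an ISRE-like stretch. A match is a run of letters and was not tested as a binding site.

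The first sequence is the whole 300-base window of IRF1, the member called in the most comparisons below, at chr5:132490724-132491023 on the minus strand. It holds a GAS core, in capitals, at position -124 from the start, and no ISRE core. The other lines are windows of 40 bases with the matched cores in capitals. ISG15, an abundant ubiquitin-like modifier, carries 2 overlapping ISRE cores, and SAMD9 and IFIT3 carry the ISRE core in the stretch shown. OAS1 carries a GAS core and no match to the ISRE core as searched, though its 300-base window holds the closer-spaced GAAACGAAA outside the stretch shown. DTX3L and PARP9, whose products form 1 complex, lie head to head: the stretch chr3:122564317-122564356 holds the same ISRE core for both, read from opposite strands.
IRF1, chr5:132490724-132491023, minus strand: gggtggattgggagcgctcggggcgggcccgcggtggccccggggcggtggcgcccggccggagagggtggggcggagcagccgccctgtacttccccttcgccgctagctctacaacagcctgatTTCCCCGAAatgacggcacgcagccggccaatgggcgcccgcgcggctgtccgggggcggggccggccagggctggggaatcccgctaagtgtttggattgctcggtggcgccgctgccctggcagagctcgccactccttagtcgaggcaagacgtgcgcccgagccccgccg
ISG15, chr1:1013369-1013408, plus strand: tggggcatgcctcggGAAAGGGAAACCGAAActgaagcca
SAMD9, chr7:93118091-93118130, minus strand: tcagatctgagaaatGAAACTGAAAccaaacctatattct
IFIT3, chr10:89327826-89327865, plus strand: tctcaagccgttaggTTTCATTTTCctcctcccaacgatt
OAS1, chr12:112906779-112906818, plus strand: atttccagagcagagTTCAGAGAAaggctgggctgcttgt
DTX3L, chr3:122564317-122564356, plus strand: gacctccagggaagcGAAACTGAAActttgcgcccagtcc
PARP9, chr3:122564317-122564356, minus strand: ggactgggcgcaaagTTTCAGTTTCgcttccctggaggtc

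The members ranged from abundant to nearly silent. In this line 27 of the 40 had a mean of at least 5 CPM, 38 passed the filter on low counts, and IFI44L and MX1 did not. MX1, a GTPase that traps viral nucleocapsids, ran from 0 to 0.289 CPM, and IFI44L from 0.0921 to 0.289 CPM. Per kilobase of GENCODE v29 exon length, a rough scale between genes, BST2 stood highest at a mean of 112 CPM per kb. ISG15 followed at 53.4, IFITM1 at 42.1, IFITM2 at 37.2 and IFI6 at 25.7 CPM per kb. The length joins all annotated exons of a gene, whether or not they were expressed here, so genes with many annotated exons may read low. USP18 was at 11.2, IRF1 at 10.8 and DTX3L at 9.88 CPM per kb, while MX2 stood at 0.311, HERC6 at 0.212 and TRIM22 at 0.118 CPM per kb. Among the 27 members of at least 5 CPM, the highest of the 8 libraries was a median of 1.37 times the lowest (range 1.09 to 1.81). For all 10555 tested genes at that level the median was 1.28 times.

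**Figure D1:**
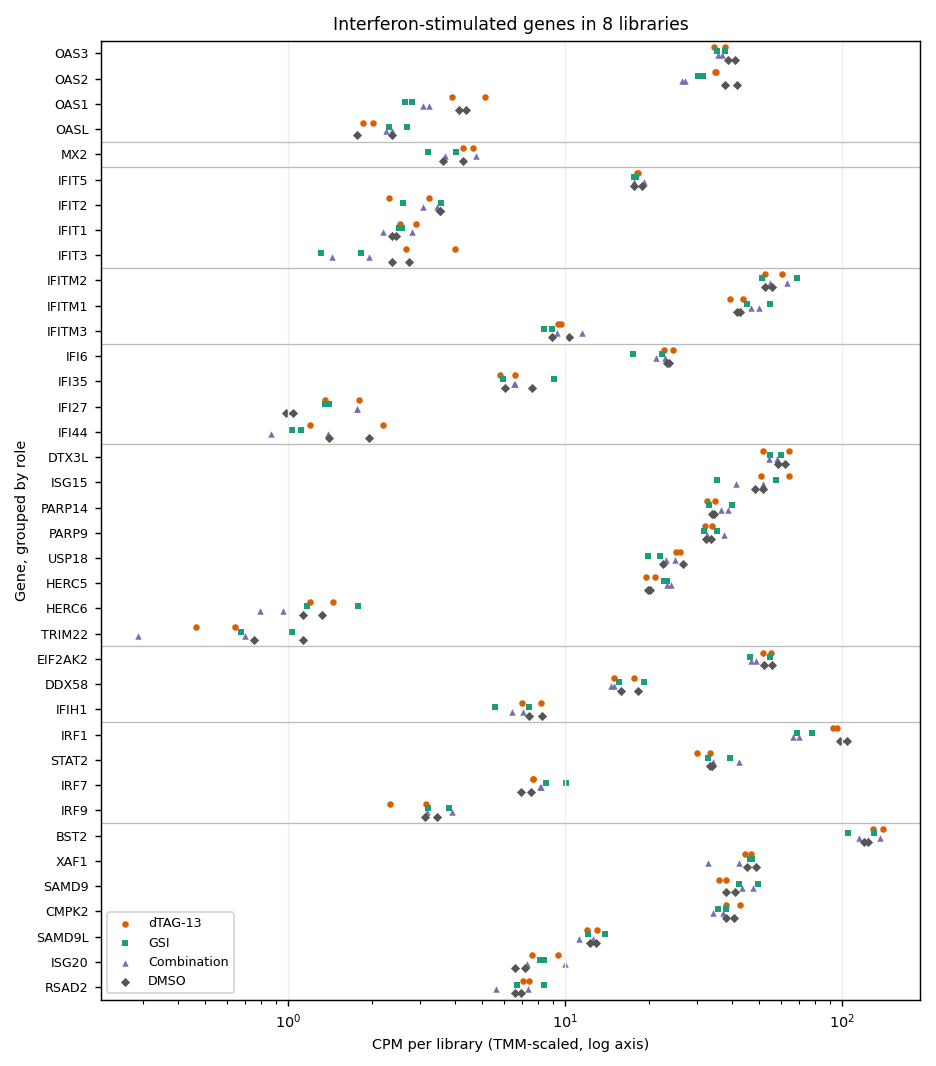
CPM of the 38 tested members in each of the 8 libraries (log axis), with genes grouped by role and 2 points per treatment. For 22 of the 27 members of at least 5 CPM (81.5%) the highest library is under 1.5 times the lowest. The same holds for 85.4% of the 10555 tested genes at that level. IRF1 and OAS2 lie lower in the GSI and combination libraries than in the dTAG-13 and DMSO libraries.

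Among the transcription factors IRF1 was called in 4 of the 8 comparisons. IRF1 activates interferon-stimulated and antigen-presentation genes. It had 68.3 and 77.5 CPM with GSI and 66.3 and 70.01 CPM with the combination, against 92.4 and 95.5 CPM with dTAG-13 and 98.1 and 104 CPM with DMSO. All 4 libraries with GSI were below all 4 without it. IRF1 was lower with GSI than with DMSO (log2 fold change -0.47, SE 0.09, adjusted p = 0.0164), lower with the combination than with DMSO (log2 fold change -0.57, SE 0.09, adjusted p = 0.00651) and lower with the combination than with dTAG-13 (log2 fold change -0.46, SE 0.09, adjusted p = 0.0261). Averaged over both backgrounds, that is 4 libraries with GSI against 4 without, it fell by 27.7% (log2 fold change -0.47, SE 0.06, adjusted p = 8.27e-04, 95% interval -0.60 to -0.33). dTAG-13 gave -0.11 against DMSO and -0.10 on top of GSI, neither of which passed. All adjusted p-values here are from edgeR's quasi-likelihood test on 8 libraries, adjusted by Benjamini-Hochberg over 15646 genes, with calls made at 0.05. Averaged over backgrounds, the IRF1 call held under each of the 13 alternatives run, with log2 fold changes of -0.52 to -0.43 and adjusted p-values up to 0.0128. The call against DMSO alone was lost without GSI replicate 1 (adjusted p = 0.102), DMSO replicate 1 (0.123) or DMSO replicate 2 (0.287). The call of the combination against DMSO was lost without combination replicate 1 (0.0562), DMSO replicate 1 (0.0604) or DMSO replicate 2 (0.177). Against dTAG-13 it was lost without dTAG-13 replicate 1 (0.174), dTAG-13 replicate 2 (0.301) or combination replicate 1 (0.153), and when only the 4 libraries of that comparison were fitted (0.0537).

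Other factors of the group did not pass in any comparison. STAT2, the signal carrier of type I interferon, had 33.4 and 29.8 CPM with dTAG-13, 39.2 and 32.7 CPM with GSI, 42.2 and 34.2 CPM with the combination and 33.8 and 33.3 CPM with DMSO. Both combination libraries stood above both dTAG-13 and both DMSO libraries, and replicate 1 was the higher of the pair in each group, by the least with DMSO. IRF7, the factor that amplifies interferon gene transcription, had 7.65 and 7.64 CPM with dTAG-13, 8.54 and 10.03 CPM with GSI, 8.10 and 8.15 CPM with the combination and 6.93 and 7.54 CPM with DMSO. Both GSI libraries and both combination libraries were above all 4 libraries without GSI (log2 fold change 0.22, SE 0.10, adjusted p = 0.208 averaged). IRF9, the DNA-binding part of the STAT2 complex, was lower in level, at 2.33 to 3.88 CPM over the libraries. In GENCODE v29, 39.1% of the 100-base stretches of IRF9 transcripts also occur in AL136295.5, so its reads may be split or shared.

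The OAS enzymes sense double-stranded RNA and make 2'-5' oligoadenylates that activate RNase L. OAS2 and OAS1 were both lower with GSI when averaged over backgrounds, while OAS3 and OASL did not pass. OAS2 had 31.3 and 30.05 CPM with GSI and 27.1 and 26.3 CPM with the combination, against 35.1 and 34.6 CPM with dTAG-13 and 37.7 and 41.6 CPM with DMSO. The 4 libraries with GSI lay below the 4 without it, and the combination libraries were the lowest of all. OAS2 was lower with the combination than with DMSO (log2 fold change -0.57, SE 0.09, adjusted p = 0.00993); against DMSO, GSI alone gave -0.37 (adjusted p = 0.0771), and dTAG-13 alone -0.19 (adjusted p = 1). Averaged over backgrounds, GSI lowered OAS2 by 23% (log2 fold change -0.38, SE 0.07, adjusted p = 0.0052), a call lost without DMSO replicate 2 (adjusted p = 0.0522). The call of the combination against DMSO was lost without combination replicate 1 (0.0516), DMSO replicate 1 (0.0568) or DMSO replicate 2 (0.256). The interaction of both drugs, that is how far OAS2 in the combination departed from adding their log2 effects, did not pass (log2 fold change -0.02, SE 0.13, adjusted p = 1).

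OAS1 had 2.63 and 2.80 CPM with GSI and 3.21 and 3.07 CPM with the combination, against 3.92 and 5.13 CPM with dTAG-13 and 4.39 and 4.13 CPM with DMSO, again with no overlap between libraries with and without GSI. Its fall averaged over backgrounds (log2 fold change -0.59, SE 0.14, adjusted p = 0.0251) did not pass with DESeq2's Wald test (adjusted p = 0.0696) or without any 1 of 5 libraries: dTAG-13 replicate 2, GSI replicate 1, combination replicate 1, DMSO replicate 1 and DMSO replicate 2 (adjusted p from 0.0521 to 0.14). OAS3, the form that answers to long RNA, had 37.6 and 34.4 CPM with dTAG-13, 37.6 and 35.2 CPM with GSI, 35.5 and 36.7 CPM with the combination and 38.7 and 41.00 CPM with DMSO. Its groups with and without GSI overlapped (log2 fold change -0.06, SE 0.07, adjusted p = 0.626 averaged). OASL, which has lost the enzymatic activity, ran from 1.77 to 2.67 CPM.

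IFIT proteins bind viral RNA ends and translation factors. IFIT5 had 18.2 and 18.1 CPM with dTAG-13, 17.7 and 17.99 CPM with GSI, 19.2 and 17.6 CPM with the combination and 17.7 and 18.9 CPM with DMSO, a flat pattern in which the highest library was 1.09 times the lowest. IFIT3 was low, with 1.31 and 1.83 CPM with GSI and 1.95 and 1.44 CPM with the combination, against 4.01 and 2.66 CPM with dTAG-13 and 2.37 and 2.72 CPM with DMSO. Libraries with and without GSI did not overlap, and dTAG-13 replicate 1 stood above the rest. IFIT3 was called lower for GSI averaged over backgrounds (log2 fold change -0.84, SE 0.20, adjusted p = 0.0274), but not without dTAG-13 replicate 1 (adjusted p = 0.106), GSI replicate 1 (0.083), combination replicate 2 (0.0526), DMSO replicate 1 (0.0779) or DMSO replicate 2 (0.141). IFIT1 (2.21 to 2.89 CPM) and IFIT2 (2.30 to 3.57 CPM) did not pass in any comparison. Of the MX GTPases only MX2 was tested; it ran from 3.18 to 4.75 CPM and did not pass.

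**Figure D2:**
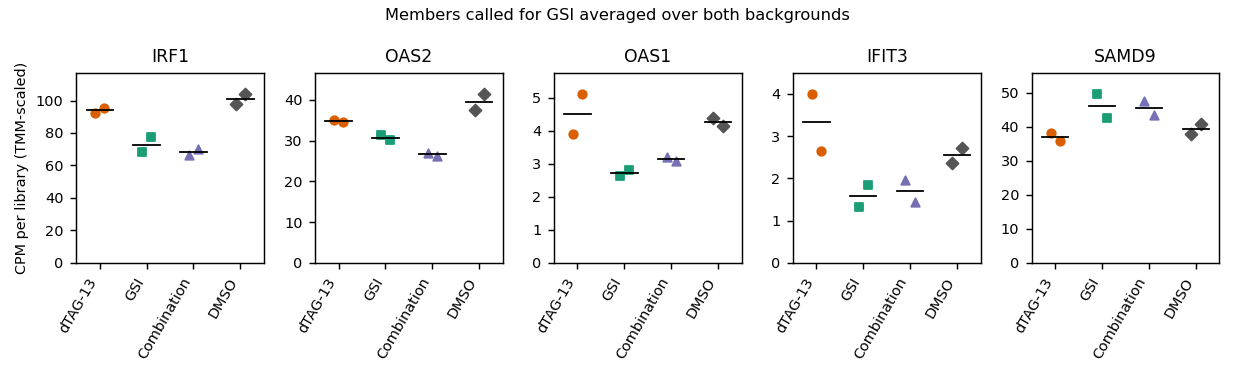
CPM per library of the 5 members called for GSI averaged over both backgrounds, with 2 points and their mean (line) for each treatment and axes that start at 0. IRF1, OAS2, OAS1 and IFIT3 lie lower, and SAMD9 higher, in the GSI and combination libraries.

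IFITM proteins sit in endosomal and plasma membranes and hinder fusion of viruses with the cell. IFITM1 had 45.1 and 54.6 CPM with GSI and 46.7 and 49.9 CPM with the combination, against 39.2 and 43.9 CPM with dTAG-13 and 42.7 and 41.5 CPM with DMSO. Every library with GSI was above every library without it, yet the difference did not pass averaged over backgrounds (log2 fold change 0.23, SE 0.08, adjusted p = 0.0906); it passed with a replicate block (adjusted p = 0.0343), without the filter on low counts (0.0417) and without GSI replicate 1 (0.0303). IFITM2 had 52.8 and 60.4 CPM with dTAG-13, 51.3 and 68.7 CPM with GSI, 54.6 and 62.96 CPM with the combination and 55.96 and 52.7 CPM with DMSO. IFITM3 had 9.40 and 9.65 CPM with dTAG-13, 8.96 and 8.34 CPM with GSI, 9.36 and 11.5 CPM with the combination and 10.3 and 8.94 CPM with DMSO. The groups overlapped for IFITM2, while for IFITM3 both combination libraries were above both GSI libraries; no comparison passed for either. These 3 genes are near copies: of their 100-base stretches, 27.5% of IFITM1, 18.2% of IFITM2 and 3.13% of IFITM3 also occur in another IFITM gene, so their counts are uncertain.

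Of the IFI genes, named only for their induction by interferon and of unlike function, IFI6 and IFI35 had at least 5 CPM. IFI6, a mitochondrial and endoplasmic reticulum protein, had 22.7 and 24.4 CPM with dTAG-13, 17.6 and 22.4 CPM with GSI, 21.2 and 22.97 CPM with the combination and 23.7 and 23.2 CPM with DMSO. IFI35 had 5.80 and 6.57 CPM with dTAG-13, 5.96 and 9.07 CPM with GSI, 6.56 and 6.52 CPM with the combination and 7.57 and 6.04 CPM with DMSO. GSI replicate 1 was the lowest library for IFI6 and GSI replicate 2 the highest for IFI35, and no comparison passed for either. IFI27 (0.982 to 1.80 CPM) and IFI44 (0.863 to 2.19 CPM) did not pass.

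No gene of ISG15 conjugation or of the PARP and ubiquitin ligase group passed in any comparison. ISG15, the modifier itself, had 50.95 and 64.1 CPM with dTAG-13, 35.4 and 57.7 CPM with GSI, 41.4 and 51.9 CPM with the combination and 48.6 and 51.6 CPM with DMSO. In each group replicate 2 was higher, by the least with DMSO, and the GSI pair held both the lowest library and the next to highest. USP18, which removes ISG15 and dampens the interferon receptor, had 25.1 and 25.96 CPM with dTAG-13, 19.9 and 21.9 CPM with GSI, 23.1 and 24.8 CPM with the combination and 26.7 and 22.6 CPM with DMSO; 15.4% of its 100-base stretches also occur in USP41. HERC5, the main ISG15 ligase, had 22.8 and 23.3 CPM with GSI and 24.2 and 23.3 CPM with the combination, against 21.1 and 19.5 CPM with dTAG-13 and 20.2 and 19.9 CPM with DMSO. Its 4 libraries with GSI were above the 4 without, without passing (log2 fold change 0.21, SE 0.07, adjusted p = 0.0978 averaged).

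DTX3L, a ubiquitin ligase, had 64.1 and 51.9 CPM with dTAG-13, 60.3 and 54.8 CPM with GSI, 58.1 and 54.2 CPM with the combination and 58.6 and 62.1 CPM with DMSO. PARP9, its partner and an ADP-ribosyltransferase family member, had 33.8 and 31.9 CPM with dTAG-13, 31.6 and 35.3 CPM with GSI, 32.5 and 37.3 CPM with the combination and 33.5 and 32.1 CPM with DMSO. DTX3L and PARP9 share the ISRE core shown above. Both stayed within 1.24 times over the libraries, and neither passed. PARP14, another ADP-ribosyltransferase, had 34.7 and 32.4 CPM with dTAG-13, 39.9 and 32.9 CPM with GSI, 38.6 and 36.4 CPM with the combination and 33.7 and 34.5 CPM with DMSO. HERC6 (0.791 to 1.78 CPM) and TRIM22 (0.288 to 1.14 CPM) were low and did not pass.

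The sensors of viral RNA showed no call. DDX58 (RIG-I) had 17.6 and 15.01 CPM with dTAG-13, 19.2 and 15.6 CPM with GSI, 15.03 and 14.6 CPM with the combination and 18.3 and 15.9 CPM with DMSO. IFIH1 (MDA5) had 8.15 and 6.99 CPM with dTAG-13, 7.37 and 5.59 CPM with GSI, 6.42 and 7.05 CPM with the combination and 7.39 and 8.22 CPM with DMSO. EIF2AK2, the kinase PKR that stops translation on double-stranded RNA, had 55.4 and 51.8 CPM with dTAG-13, 54.8 and 46.4 CPM with GSI, 48.7 and 46.8 CPM with the combination and 52.03 and 55.8 CPM with DMSO. For all 3 genes both combination libraries were below both DMSO libraries, as were those of 20.5% of all genes, while the 4 libraries with GSI overlapped the 4 without. The averaged GSI effects were -0.06, -0.22 and -0.13 on the log2 scale, with 95% intervals of -0.26 to 0.15, -0.48 to 0.04 and -0.28 to 0.02 in that order.

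Among the other effectors SAMD9 was called. SAMD9, an antiviral factor that also restrains growth, had 49.8 and 42.5 CPM with GSI and 47.5 and 43.5 CPM with the combination, against 38.1 and 35.9 CPM with dTAG-13 and 38.00 and 40.8 CPM with DMSO. The libraries with GSI were all above those without. It rose with GSI averaged over backgrounds (log2 fold change 0.26, SE 0.07, adjusted p = 0.0495), the only called rise among the members. The rise did not pass with relative log expression (RLE) scaling in edgeR in place of TMM (adjusted p = 0.0521). Nor did it pass with the Wald test of DESeq2 (0.0631). The call was also lost without any 1 of 6 libraries: both dTAG-13, both DMSO, GSI replicate 1 and combination replicate 1. Over all alternatives the log2 fold change of SAMD9 ran from 0.20 to 0.32. Its neighbour and paralogue SAMD9L had 13.04 and 11.98 CPM with dTAG-13, 13.9 and 12.1 CPM with GSI, 12.6 and 11.2 CPM with the combination and 12.2 and 12.9 CPM with DMSO, with overlapping groups (log2 fold change -0.01, SE 0.09, adjusted p = 0.951 averaged).

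BST2 (tetherin), which holds budding virions on the cell surface, had 129 and 140.4 CPM with dTAG-13, 105 and 131 CPM with GSI, 115 and 137 CPM with the combination and 123 and 119 CPM with DMSO. Replicate 2 was the higher in each drug-treated group. XAF1, a pro-apoptotic partner of XIAP, had 44.5 and 46.99 CPM with dTAG-13, 47.2 and 46.6 CPM with GSI, 32.7 and 42.2 CPM with the combination and 48.97 and 45.4 CPM with DMSO. Both combination libraries were the lowest, with log2 fold changes of -0.33 against DMSO and -0.33 against GSI. Neither passed with all 8 libraries; against DMSO it did without combination replicate 2 (adjusted p = 0.0375).

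CMPK2, a mitochondrial nucleotide kinase, had 42.7 and 37.9 CPM with dTAG-13, 37.9 and 35.5 CPM with GSI, 34.03 and 37.2 CPM with the combination and 38.1 and 40.8 CPM with DMSO. RSAD2 (viperin), which makes a chain-terminating nucleotide, is transcribed head to head with CMPK2 and had 7.37 and 7.04 CPM with dTAG-13, 8.35 and 6.70 CPM with GSI, 7.31 and 5.61 CPM with the combination and 6.58 and 6.90 CPM with DMSO. ISG20, an RNA exonuclease, had 9.44 and 7.55 CPM with dTAG-13, 8.35 and 8.10 CPM with GSI, 10.01 and 7.29 CPM with the combination and 6.58 and 7.17 CPM with DMSO. For CMPK2 the highest library with GSI was just below the lowest without it (log2 fold change -0.14, SE 0.07, adjusted p = 0.262 averaged). Libraries with and without GSI overlapped for RSAD2 and ISG20, and those with and without dTAG-13 overlapped for all 3. No comparison passed for any of them.

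Counted over the 38 tested members, GSI averaged over backgrounds gave 5 calls, 1 higher and 4 lower, or 13.2%, against 6.94% of all 15646 genes tested. Of all genes, 3.38% were called higher and 3.56% lower. GSI against DMSO gave 1 call, lower (1.74% of all genes called, 0.863% lower). The combination against DMSO gave 2, both lower (1.31%, 0.767% lower), and against dTAG-13 1, lower (1.21%, 0.569% lower). The comparisons with DMSO share the same 2 control libraries. Libraries of the combination and of DMSO did not overlap for 63.2% of the tested members, 8 higher and 16 lower, beside 42.1% of all genes. The members' median log2 fold change for GSI averaged was -0.04, beside 0.01 for all genes tested. Libraries with and without GSI did not overlap for 23.7% of the tested members, beside 15.2% of all genes. The members' values had both signs: 15 positive and 23 negative, while 48.4% of all genes were negative.

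With dTAG-13 no member passed the test. In edgeR, dTAG-13 against DMSO called 0 of 38 members (0.0192% of all genes), with 1 at an unadjusted p under 0.05 (3.84% of all genes). Against GSI, the combination called 0 (0.0575%), with 2 unadjusted (4.14%), and dTAG-13 averaged over backgrounds called 0 (0.499%), with 4 unadjusted (6.08%). The departure from additivity called 0 members and 0% of all genes, with 0 members at an unadjusted p under 0.05 (1.66% of all genes). DESeq2 also called 0 members in these 4 comparisons. The members' values for dTAG-13 averaged ran from -0.78 (TRIM22, under 1 CPM) to 0.49 (IFI27), with a median of -0.0036 and 0 members whose 4 libraries with dTAG-13 did not overlap the 4 without (2.63% of all genes).

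A missed threshold does not show that a level was the same, so the intervals are given. For dTAG-13 averaged, the 95% interval of the fold change, unadjusted for the number of genes, lay within 2-fold in both directions for 37 of 38 members (90.2% of all genes). For GSI averaged it did so for 36 of 38 (88.6%). All 27 members of at least 5 CPM had intervals within 2-fold in all 8 comparisons. The share among all genes at that level was not computed, so this count is not a trait of the members. BST2, the highest per length, had an interval of -0.05 to 0.30 for dTAG-13 averaged and -0.25 to 0.10 for GSI averaged on the log2 scale, and ISG15 -0.19 to 0.39 and -0.49 to 0.09 for the same 2 effects.

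Outside the calls, the members of at least 5 CPM with the highest and lowest values in each comparison are given here; none passed the edgeR test. With dTAG-13 against DMSO, the log2 fold change and its SE were ISG20 0.30 ± 0.18, ISG15 0.20 ± 0.19, BST2 0.15 ± 0.11, IFI35 -0.13 ± 0.20, OAS3 -0.15 ± 0.09 and OAS2 -0.19 ± 0.09, with a lowest adjusted p of 1. With GSI against DMSO, the log2 fold change and its SE were IRF7 0.36 ± 0.14, ISG20 0.25 ± 0.18, IFITM1 0.24 ± 0.11, IFIH1 -0.27 ± 0.17 and OAS2 -0.37 ± 0.09, with a lowest adjusted p of 0.0771. With the combination against DMSO, the log2 fold change and its SE were ISG20 0.33 ± 0.18, HERC5 0.24 ± 0.10, SAMD9 0.21 ± 0.10 and XAF1 -0.33 ± 0.11, with a lowest adjusted p of 0.233. ISG20 stood at the upper end and OAS2 at the lower end in the comparison of dTAG-13 with DMSO. With the combination against dTAG-13, the log2 fold change and its SE were SAMD9 0.30 ± 0.10, STAT2 0.28 ± 0.12, HERC5 0.22 ± 0.10, ISG15 -0.30 ± 0.19 and OAS2 -0.38 ± 0.09, with a lowest adjusted p of 0.0809. With the combination against GSI, the log2 fold change and its SE were IFITM3 0.27 ± 0.14, USP18 0.20 ± 0.11, IFI6 0.14 ± 0.12, RSAD2 -0.22 ± 0.17, DDX58 -0.23 ± 0.14 and XAF1 -0.33 ± 0.11, with a lowest adjusted p of 0.991. For the interaction, the log2 fold change and its SE were IFITM3 0.27 ± 0.20, STAT2 0.17 ± 0.17, USP18 0.14 ± 0.16, IRF7 -0.27 ± 0.20, XAF1 -0.28 ± 0.16 and RSAD2 -0.31 ± 0.24, with a lowest adjusted p of 1. XAF1 was the lowest of these against both DMSO and GSI. For GSI averaged, the log2 fold change and its SE were IFITM1 0.23 ± 0.08, IRF7 0.22 ± 0.10 and IFIH1 -0.22 ± 0.12, with a lowest adjusted p of 0.0906. For dTAG-13 averaged, the log2 fold change and its SE were ISG20 0.19 ± 0.12, IFITM3 0.13 ± 0.10, USP18 0.12 ± 0.08, IFI35 -0.16 ± 0.14, XAF1 -0.19 ± 0.08 and OAS2 -0.19 ± 0.07, with a lowest adjusted p of 0.562.

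**Figure D3:**
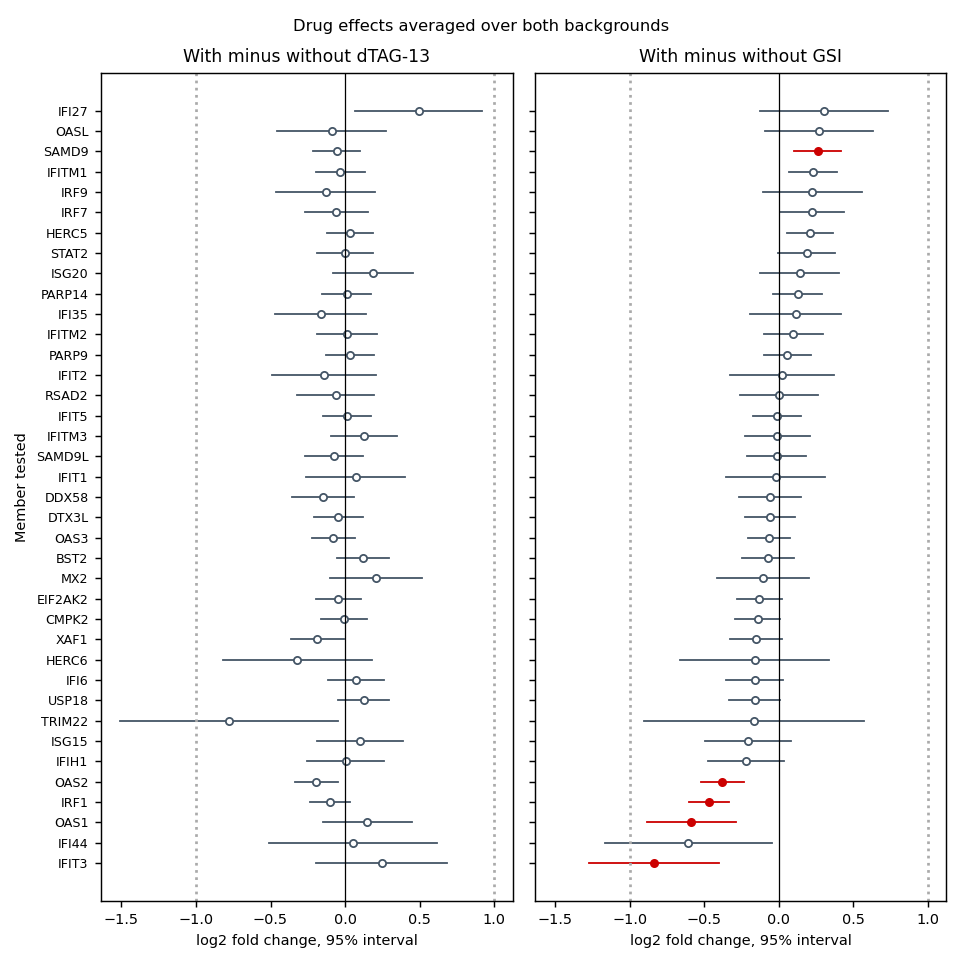
Log2 fold changes of the 38 tested members with their 95% intervals, for 4 libraries with dTAG-13 minus 4 without (left) and 4 with GSI minus 4 without (right). Filled red points passed at an adjusted p under 0.05: none on the left, and IFIT3, OAS1, IRF1, OAS2 and SAMD9 on the right; dotted lines mark 2-fold.

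In the authors' deposited tables, which hold their own DESeq2 tests against DMSO, 0 of the 33 members with an adjusted p passed for dTAG-13, 1 of 36 for GSI and 2 of 36 for the combination. The authors' deposited tables give IRF1 a log2 fold change of -0.48 with GSI (adjusted p = 0.0105) and -0.58 with the combination (adjusted p = 1.09e-04), and OAS2 -0.58 with the combination (adjusted p = 0.00831).

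The pairs of replicates differed along transcript length, and the members followed. Across the 27 members of at least 5 CPM, replicate 2 minus replicate 1 in log2 CPM correlated with exon length at a Spearman rho of -0.59 with dTAG-13, -0.56 with GSI and -0.45 with the combination, and at 0.37 with DMSO. Over all 10409 genes at that level with a length, rho was -0.39, -0.52, -0.40 and 0.34 in the same order of groups. These are descriptions across genes, which are not independent replicates. In the GSI pair the shortest tercile of all genes had a median difference of 0.14 and the longest -0.11, while the 9 members in the shortest tercile had 0.32 and the 8 in the longest -0.15. The values of short members such as ISG15, BST2 and IFITM2 carried a wide replicate spread. With an offset for exon length, IRF1 (-0.47 averaged without the offset) stood at -0.51 for GSI averaged (adjusted p = 0.0019), OAS2 at -0.42 (0.00143), OAS1 at -0.62 (0.0195), IFIT3 at -0.86 (0.0225) and SAMD9 at 0.22 (0.0391), so these 5 calls were as many with the offset as without it. The same offset put OAS2 past the threshold for GSI against DMSO (adjusted p = 0.0396) and for the combination against dTAG-13 (0.0268).

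**Figure D4:**
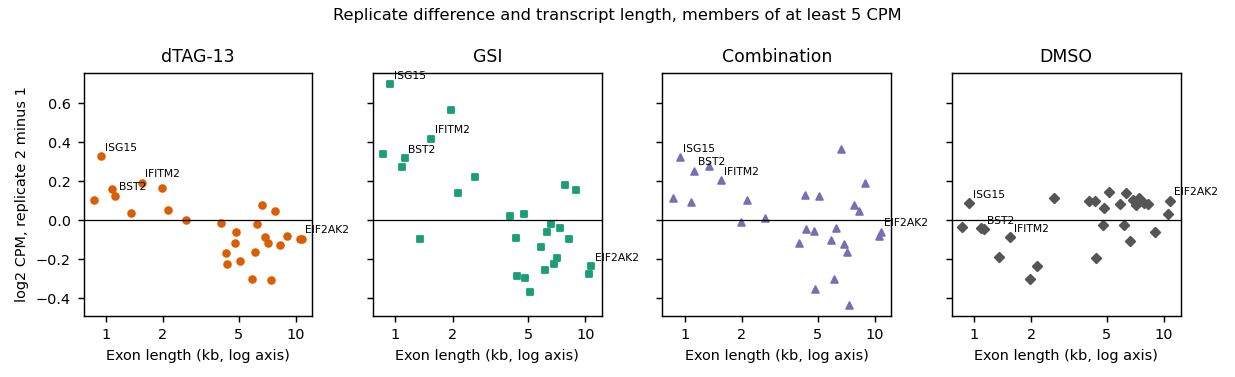
Replicate 2 minus replicate 1 in log2 CPM (0.5 added) against exon length (kb, log axis) for the 27 members of at least 5 CPM, 1 panel per treatment. Of the labelled genes, the short ISG15, BST2 and IFITM2 lie above 0 and the long EIF2AK2 below 0 in the dTAG-13, GSI and combination pairs. In the DMSO pair EIF2AK2 and ISG15 lie above 0 and BST2 and IFITM2 below. Not every gene follows length: the long IRF1 lies above 0 in every panel.

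The rest of the interferon pathway was read from 94 further genes in 6 lists, of which 69 were tested. The 10 interferon ligands summed to 0 to 4 counts per library (up to 0.192 CPM), 7 of them had no count in any library, and none was tested. The 6 receptor chains were all tested, summed to 233 to 236 CPM with GSI and to 224 to 227 CPM with DMSO, and 0 passed in any comparison. With dTAG-13 0 of the 69 passed, and with GSI averaged 1 rose and 5 fell, where 6.94% of all genes were called, 3.38% higher and 3.56% lower.

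SOCS1, which shuts off Janus kinases, had 16.2 and 19.4 CPM with GSI and 21.6 and 20.95 CPM with the combination, against 15.5 and 16.7 CPM with dTAG-13 and 15.5 and 12.7 CPM with DMSO. It rose with GSI averaged (log2 fold change 0.37, SE 0.09, adjusted p = 0.0322), as it did in the combination against DMSO (log2 fold change 0.60, SE 0.13, adjusted p = 0.0491). Its libraries with and without GSI overlapped. None of the calls in these further lists was rerun under the alternatives used for the members. How far they depend on single libraries or on transcript length is therefore not known. IRF8, a lymphoid and myeloid partner of the IRF family, fell with GSI averaged (log2 fold change -1.10, SE 0.19, adjusted p = 0.00534) from low counts, having 0.986 and 1.11 CPM with GSI and 1.40 and 1.49 CPM with the combination, against 2.17 and 3.22 CPM with dTAG-13 and 2.37 and 2.77 CPM with DMSO. LY6E, a membrane protein that limits coronavirus entry, had 75.7 and 103 CPM with GSI and 84.7 and 100.3 CPM with the combination, against 126 and 143 CPM with dTAG-13 and 119 and 112 CPM with DMSO, with no overlap between libraries with and without GSI (log2 fold change -0.45, SE 0.09, adjusted p = 0.0129). LGALS3BP (-0.31), LAP3 (-0.30) and TRIM14 (-0.22) also fell with GSI averaged, with adjusted p-values of 0.00538, 0.0275 and 0.0264. In the list of 43 other interferon-stimulated genes, 36 were tested, 4 fell and 0 rose with GSI averaged (3.56% and 3.38% of all genes), and the median was -0.06, beside 0.01 for all genes. The summed level of these 43 genes was 2080 to 2105 CPM with GSI and 2038 to 2073 CPM with the combination, against 2219 to 2239 CPM with dTAG-13 and 2226 to 2236 CPM with DMSO.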

How the data were processed

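The authors deposited integer counts per gene and library; per the submitters' processing notes these came from STAR 2.5.2a and featureCounts on hg19, while strand setting and gene annotation were not found in the sources used here. The authors also deposited 3 tables against DMSO made with DESeq2 1.12.4 (processing notes), with log2 fold changes and errors, a score (fold change over error) and p-values. Each table's log2 values are the treatment relative to DMSO.

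After filterByExpr and TMM scaling, a quasi-likelihood model of all 4 groups was fitted with edgeR 4.0.16 (R 4.3.3) with robust dispersions and 4 residual degrees of freedom; SE is the log2 fold change over the square root of F. The common biological coefficient of variation was 0.0804. The test was tried on simulated data first. Alternatives were RLE scaling in edgeR, the Wald test of DESeq2 1.42.0, no filter and a replicate block. Others were the 4 compared libraries alone and leaving out each library. An exon length offset was added after seeing the data. The members, lists and averaged effects were chosen with earlier results of these data known. Values per library are given for members of at least 5 CPM and for called ones, and fold changes for called members and the largest others. Replicates were not copies: their counts differed by a chi-square of 4.45 to 13.4 per degree of freedom. Lengths and shared 100-base stretches come from GENCODE v29 (GRCh38), promoters from RefSeq (GRCh38.p14), another build than the counts.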

Additional observations from a re-analysis of the deposited data

How the results depend on the processing

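The 0 calls among the members for dTAG-13 against DMSO, the combination against GSI, dTAG-13 averaged and the departure from additivity stayed 0 under every alternative run. For GSI averaged, 5 calls became 3 with the Wald test of DESeq2, and 1 to 6 when 1 library was left out (1 without DMSO replicate 2, where IRF1 remained). For GSI against DMSO, 1 call became 2 without the filter on low counts, 2 with the replicate block and 2 with the length offset, and 0 to 1 with 1 library left out. For the combination against dTAG-13, 1 call became 3 without the filter, 2 with the replicate block, 2 with the length offset, 0 in the fit of the 4 compared libraries alone, and 0 to 1 with 1 library left out. For the combination against DMSO, leaving out 1 library gave 0 to 3 calls: 0 without combination replicate 1, DMSO replicate 1 or DMSO replicate 2. SAMD9 also lost its call for GSI averaged with RLE scaling, and IFITM1 gained one without the filter and with the replicate block. The cause of these shifts was not tested. Where 1 library was left out, the smaller number of libraries and the library removed cannot be told apart.

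Replicate numbers were not taken as pairs. Replicate deviations correlated at 0.226 to 0.311 among the drug-treated groups and at -0.166 to -0.059 between those and DMSO. With the replicate block, all genes called for GSI averaged were 1822 against 1086 without it, and members 6 against 5. Among the named members, 514 values under the alternatives kept direction and side of the threshold, 33 lost a call, 10 gained one and 3 changed sign. Those 3 had small values: leaving out 1 library, IFI35 ran from -0.30 to 0.0046 for dTAG-13 averaged (above 0 without GSI replicate 2) and from -0.29 to 0.036 for dTAG-13 against DMSO (above 0 without DMSO replicate 1), and IFI6 from -0.019 to 0.33 for the combination against GSI (below 0 without GSI replicate 1). The median of all genes lay within 0.1 (log2) of 0 in each fit. Called genes among all tested varied more: for GSI against DMSO 272 became 660 without the filter and 559 with the block, for the combination against DMSO 205 became 532 and 413, and against dTAG-13 189 became 563 and 476. Depth limits the members under 5 CPM.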
